A study of Mus musculus with 24 samples.

Results

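Cysteine and glutathione metabolism was followed through 10 genes in spermatogonia (SPG) of the mouse testis at postnatal day 7 (P7). The genes were taken by name, Cth, Cbs, Gclc, Gclm, Gss, Gsr, Gpx4, Gsta3, Gsta4 and Gstm1, and 10 of 10 were listed among the 23177 genes of the Zbtb16 table and among the 21688 genes of the Sox3 table. Levels are in FPKM, read numbers scaled to transcript length and to library depth, so that levels of different genes are compared per unit of length. RNA sequencing was done on 24 libraries in 8 groups of 3. Cells were sorted with magnetic beads into a THY1+ fraction, taken as undifferentiated SPG (uSPG), and a KIT+ fraction, taken as differentiating SPG (dSPG).

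In the Zbtb16 table both fractions came from wild-type (WT) littermates and from Zbtb16 null mice, homozygous for the luxoid allele (lu/lu). In the Sox3 table they came from WT mice and from Sox3 conditional knockout (cKO) mice, in which a floxed Sox3 allele was deleted by a Cre driven by the Ddx4 (Vasa) promoter in germ cells, so that the somatic cells of the testis kept the gene. All groups were male, of the same age and on the C57BL/6J background, and each isolation pooled the testes of 3 mice, so a library is a pool and not an animal. Tests therefore measure the spread between pools. The methods purify THY1+ and KIT+ cells from the harvested cells, so libraries of the fractions may share pools. The main tests treat them as separate. The methods describe littermate controls that were WT or heterozygous, and the labels give WT.

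Transsulfuration carries the sulfur of homocysteine, a product of the methionine cycle, to cysteine. Cystathionine beta-synthase (Cbs) joins homocysteine to serine, and cystathionine gamma-lyase (Cth) cleaves the product to release cysteine. Cysteine is then used to build glutathione, the tripeptide thiol that cells use against peroxides and electrophiles. Glutamate-cysteine ligase, made of a catalytic (Gclc) and a modifier (Gclm) subunit, carries out the rate-limiting step, and glutathione synthetase (Gss) adds glycine. Glutathione reductase (Gsr) recycles the oxidized form, Gpx4 uses glutathione to reduce lipid peroxides in membranes, and the glutathione S-transferases of the alpha (Gsta3, Gsta4) and mu (Gstm1) classes conjugate glutathione to electrophiles. Gsta4 is known for its activity towards 4-hydroxynonenal, an aldehyde formed from peroxidized lipids.

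The genes lie on 7 chromosomes in GRCm38, as annotated by GENCODE M21, and all are protein coding. Cth (chr3:157894248-157925077, minus strand), Gclm (chr3:122245557-122270732, plus) and Gstm1 (chr3:108012255-108017973, minus) are on chromosome 3. Gclc (chr9:77754535-77794485, plus) and Gsta4 (chr9:78182774-78209349, plus) are on chromosome 9. Cbs is at chr17:31608894-31637238 (minus), Gss at chr2:155563181-155592810 (minus), Gsr at chr8:33652523-33698163 (plus), Gpx4 at chr10:80047166-80056439 (plus) and Gsta3 at chr1:21240589-21265661 (plus). Some of the counts could be shared with other genes. Of the 50-base windows of the annotated transcripts, 34.7% in Gpx4 also occurred in another gene, chiefly the pseudogene Gpx4-ps2, and 18.9% in Gstm1, chiefly Gstm2-ps1. The share was 10.3% in Gss, with Acss2, Gssos2 and Gssos1 on the opposite strand, and at most 4.58% in the other 7. Levels of Gpx4 and Gstm1 are uncertain in that measure, and so is that of Gss where reads were counted without regard to strand.

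RefSeq promoter windows of 300 bases, the last 50 of them after the start of transcription, were at hand for 6 of the 10 genes, as 10 promoters. Cth, Gclc, Gsr and Gsta4 had no window and were not searched. The 10 promoters include alternative ones of Gpx4 and Gstm1. They were searched on both strands for TGACNNNGC, the core of the antioxidant response element through which NRF2 acts on many glutathione genes, and for TGATGNAA, the C/EBP-ATF element of amino acid deprivation. TGACNNNGC occurred in 2 of the 10 promoters, those of Gsta3 and Gclm, and in 12.4% of all 32851 promoters. TGATGNAA occurred in 0 of the 10 and in 3.97% of all promoters. Both promoters with a match are shown, and the part of the motif in the level of either gene was not tested. The letters are a description of the window and not a site of binding. The match, in capitals, starts at -121 on the plus strand in Gsta3 (RefSeq, GRCm38.p6, chr1:21240335-21240634, plus strand) and at -134 on the minus strand in Gclm (chr3:122245307-122245606, plus strand), counted from the start of transcription.
Gsta3: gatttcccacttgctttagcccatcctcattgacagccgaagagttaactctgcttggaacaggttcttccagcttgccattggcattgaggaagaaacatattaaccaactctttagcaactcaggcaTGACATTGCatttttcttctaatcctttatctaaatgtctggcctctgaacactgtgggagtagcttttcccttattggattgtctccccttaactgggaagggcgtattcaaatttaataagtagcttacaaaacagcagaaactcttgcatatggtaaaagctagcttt
Gclm: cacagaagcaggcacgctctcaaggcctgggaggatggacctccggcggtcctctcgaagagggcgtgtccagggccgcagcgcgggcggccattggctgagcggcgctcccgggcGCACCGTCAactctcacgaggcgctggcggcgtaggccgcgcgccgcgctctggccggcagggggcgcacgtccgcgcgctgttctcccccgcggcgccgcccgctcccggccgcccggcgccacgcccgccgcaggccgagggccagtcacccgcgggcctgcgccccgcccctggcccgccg

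The labels were checked before the comparisons. Zbtb16 itself, still transcribed in the null, was at 42 to 58.7 FPKM in WT THY1+ and 15.6 to 18.2 in null THY1+ libraries, and Sox3 was at 0 to 0.0434 FPKM in cKO THY1+ and 0 to 0.0820 in cKO KIT+ libraries against 6.28 to 24.4 and 8.63 to 11.7 in WT. The sorting markers followed the labels in 6 of the 8 groups. In the Sox3 table they went against the labels of the WT libraries: Thy1 was at 0.213 to 0.254 FPKM and Kit at 45.6 to 80.1 in those labelled THY1+, and at 3.59 to 4.06 and 13 to 18.8 in those labelled KIT+. The cKO libraries are therefore set beside both WT groups below, and the WT groups are called by their labels. Estimated depth was 25.97 to 35.35 M reads per library in the Zbtb16 table. In the Sox3 table it was 28.3 to 32.04 M reads in the replicate 1 libraries and 11.07 to 14.99 M reads in those of replicates 2 and 3. Cbs was the thinnest of the genes, with an estimated 58 to 181 reads per library in the Zbtb16 table and 22 to 94 in the Sox3 table. Cth had 159 to 353 and 42 to 240, and each other gene had at least 128 in every library.

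In WT THY1+ libraries the order of levels was led by genes that recycle and use glutathione. These are levels of a mixed fraction. Summed markers there were at 278 to 342 FPKM for undifferentiated SPG, 987 to 1108 for macrophages and 516 to 769 for stromal cells. The lists differ in length, and the part of each cell type in the order was not tested. Gsr was highest at 99.9 to 112 FPKM, followed by Gsta4 at 55.1 to 72.1, Gclc at 44.1 to 48.6 and Gstm1 at 27.5 to 37. Gsta3 (13.6 to 19.2 FPKM), Gclm (11.6 to 13.2), Gpx4 (8.34 to 10.9) and Gss (5.37 to 6.10) stood between. The pair of transsulfuration genes came last, Cth at 1.93 to 2.07 FPKM and Cbs at 0.315 to 0.418. No neighbours in this order overlapped between the 3 libraries. The catalytic subunit Gclc stood above its modifier Gclm in all 24 libraries. In null THY1+ libraries Gsta4 passed Gsr to lead the order, and Gsta3 dropped below Gclm and Gpx4.

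The first comparison asks which of these genes depend on ZBTB16 in uSPG. In null THY1+ uSPG, Cth and Gsta4 were about 2-fold higher than in WT and Gsta3 was 2.27-fold lower, while the genes that synthesize and recycle glutathione differed by at most 1.13-fold. A call is an adjusted p of at most 0.05 with a change of at least 1.5-fold, from limma over all genes tested with Benjamini-Hochberg adjustment. In this comparison 3.98% of the 22374 genes tested were calls, 607 higher (2.71%) and 283 lower (1.26%). When the libraries were centred on their median gene, which shifted all changes by 0.12, the calls were 895 higher and 184 lower. Of the 10 genes 3 were calls, 2 higher and 1 lower. The study named Cth and Gsta3 for the null from these same libraries together with its ChIP-seq of ZBTB16 binding. It reports that ZBTB16 binds and attenuates Cth, and shows Gsta3 as a ZBTB16 target lowered in the null. The RNA values of both genes are therefore given as a description. Of the 8 others 1 was a call.

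Cth was at 1.94, 1.93 and 2.07 FPKM in WT and 4.05, 3.66 and 4.14 in null THY1+ libraries (replicates 1, 2 and 3 in each). The groups did not overlap, and the lowest null library was above the highest WT library by a wide margin against the spread within either group. The log2 fold change was 0.96 (SE 0.15), or 1.95-fold. Cbs, the enzyme before Cth in the pathway, was at 0.368, 0.418 and 0.315 FPKM in WT and 0.573, 0.880 and 0.559 in null libraries. The groups did not overlap, but null replicate 2 stood well above the other two and the change was not a call (log2 fold change 0.70, SE 0.19, limma adjusted p = 0.0591). Cbs became a call when the libraries were centred on their median gene (log2 fold change 0.83, limma adjusted p = 0.0201).

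The 3 genes of glutathione synthesis were not calls. Gclc was at 44.1, 47.1 and 48.6 FPKM in WT and 52.4, 51.8 and 53.7 in null THY1+ libraries, all null values above all WT values, a change of 1.13-fold (log2 0.18, SE 0.078, limma adjusted p = 0.200). Gclm was at 12.6, 13.2 and 11.6 and 14.7, 13.5 and 13.6 FPKM, again without overlap (log2 0.16, SE 0.088, limma adjusted p = 0.284). Over all genes tested, 15.5% had null values wholly above WT and 14.1% wholly below. Gss was at 5.37, 6.10 and 6.05 and 5.07, 5.71 and 6.04 FPKM, overlapping, with a log2 fold change of -0.06 and a 95% interval of -0.28 to 0.16.

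Gsr, which recycles glutathione, and Gpx4, which reduces lipid peroxides, were not calls either. Gsr was at 112, 106 and 99.9 FPKM in WT and 110.4, 107 and 108 in null THY1+ libraries, and the 95% interval of its log2 fold change was -0.16 to 0.23. Gpx4 was at 9.25, 8.34 and 10.9 and 8.26, 7.65 and 8.59 FPKM with an interval of -0.53 to 0.11. Both pairs of groups overlapped, and the intervals leave room for changes of up to about 1.44-fold lower in Gpx4.

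The transferases moved in opposite directions. Gsta4 was at 57, 55.1 and 72.1 FPKM in WT and 127, 128 and 140.5 in null THY1+ libraries. The groups did not overlap, and Gsta4 was 2.16-fold higher in the null (log2 fold change 1.11, SE 0.15, limma adjusted p = 0.00221). It stayed a call in 19 of 19 alternative analyses, with log2 fold changes of 1.04 to 1.23. Gsta3, of the same alpha class, was at 13.6, 14.1 and 19.2 FPKM in WT and 6.15, 6.50 and 7.63 in null libraries. Its groups did not overlap either, WT replicate 3 being the highest, and the log2 fold change was -1.19 (SE 0.28), or 2.27-fold lower. Gsta3 was no longer a call when any 1 of the 6 libraries compared was left out, with log2 fold changes of -1.28 to -1.03. Gstm1 was at 37, 27.5 and 28.5 FPKM in WT and 21.4, 27.7 and 21.1 in null libraries, which overlapped (log2 -0.40, SE 0.15, limma adjusted p = 0.134). The ratio of Gsta4 to Gsta3 was 3.76 to 4.19 in the WT THY1+ libraries and 18.4 to 20.6 in the null. In KIT+ libraries the ratio was 4.997 to 9.25 in WT and 13.3 to 17.3 in the null. The study named Gsta3 as lowered from these null THY1+ libraries, so a higher ratio there was partly fixed by that choice. The THY1+ ratio restates the levels of both genes and is a description only.

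**Figure D1:**
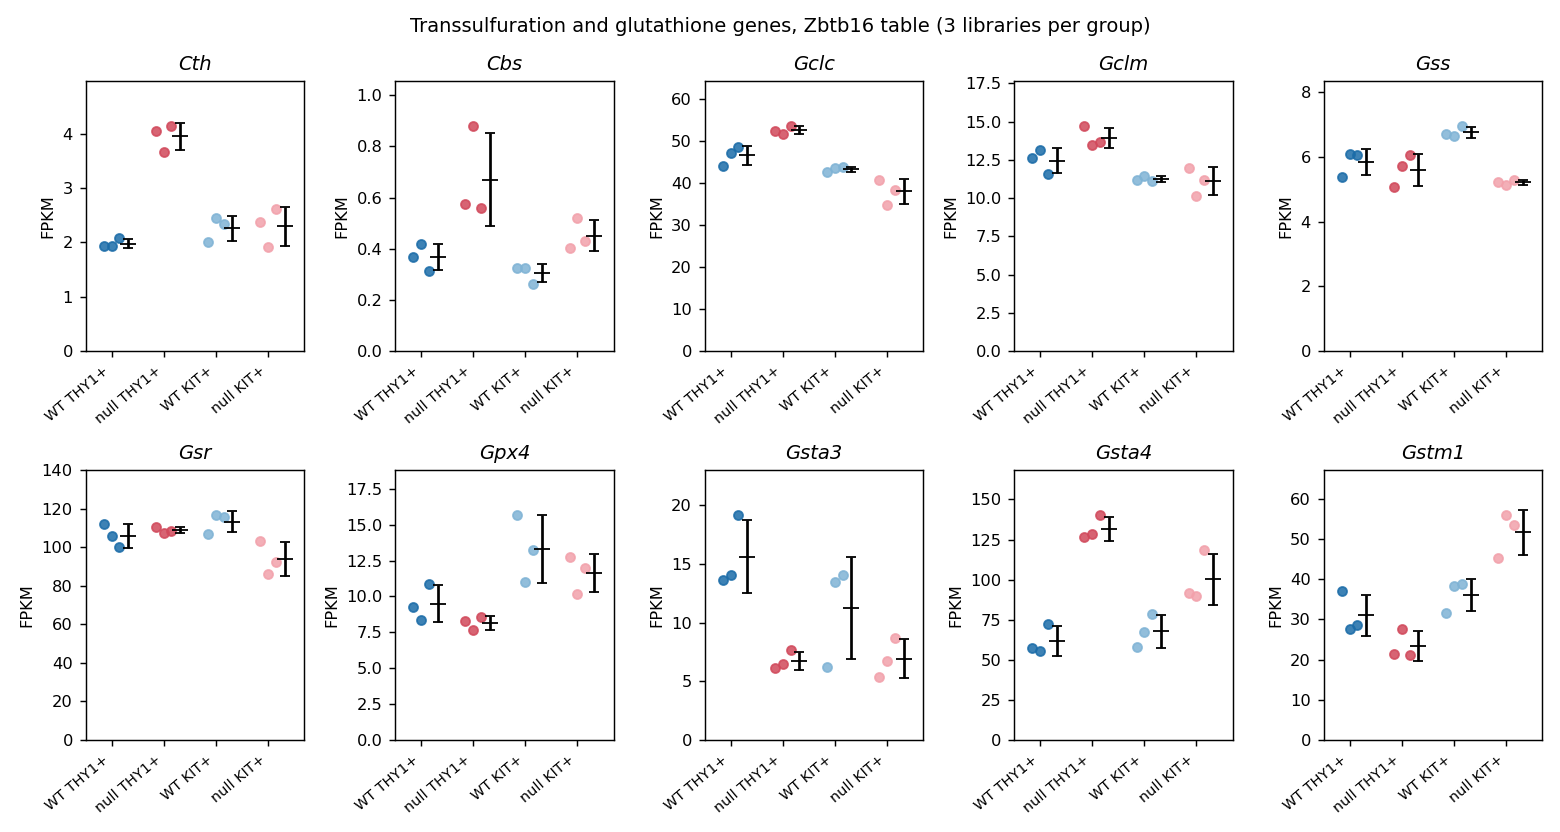
FPKM of the 10 genes in each library of the Zbtb16 table, on linear axes from 0. Points are libraries, 3 per group in replicate order, and the bar beside them is the mean ± SD. Cth and Gsta4 were higher and Gsta3 lower in the 3 null THY1+ libraries than in the 3 WT THY1+ libraries, without overlap, and Gstm1 was highest in the null KIT+ group.

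Markers of somatic cells moved in the same comparison. In null against WT THY1+ libraries, 8 of 8 Leydig cell markers were lower (median log2 fold change -0.73, summed level 52.4 to 84.7 against 87.1 to 125 FPKM), as were 12 of 12 macrophage markers (468 to 859 against 987 to 1108), 9 of 10 Sertoli cell markers (102 to 118 against 129 to 152) and 11 of 12 stromal markers (325 to 537 against 516 to 769). Calls among them were 2 macrophage markers, and no marker on these lists was at 0 in every library of a group. Their part in the levels of Gsta3 and Gstm1, which were also lower, was not tested. In bulk libraries fewer cells of a type and less RNA per cell cannot be told apart. Markers of the sorted cells, undifferentiated SPG, summed to 243 to 314 FPKM in null and 278 to 342 in WT THY1+ libraries, which overlapped. That list holds Zbtb16 itself, and its calls, higher and lower, are given with the processing of the data.

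In KIT+ dSPG the same comparison gave 0 calls among the 10 genes. Calls were 0.259% of genes tested, 43 higher (0.192%) and 15 lower (0.067%), or 29 and 20 when median centred. By limma, 7 of the 10 genes had an unadjusted p under 0.05, against 17.3% of all genes tested, and their smallest adjusted p was 0.162, that of Gsta4. Cth was near WT, at 2.0, 2.45 and 2.33 FPKM in WT and 2.37, 1.91 and 2.62 in null KIT+ libraries, with a 95% interval of -0.30 to 0.33 for the log2 fold change.

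Gsta4 was at 57.8, 67.2 and 78.4 FPKM in WT and 91.9, 89.6 and 119 in null KIT+ libraries. All null values were above all WT values, as in THY1+ cells, with a log2 fold change of 0.56 (SE 0.15). Gsta3 was at 6.25, 13.5 and 14.1 and 5.31, 6.76 and 8.65 FPKM. WT replicate 1 sat among the null libraries, so the groups overlapped (log2 -0.64, SE 0.28, limma adjusted p = 0.285), and without that library the log2 fold change was -1.01. Gstm1 was at 31.6, 38.2 and 38.7 and 45.4, 56.1 and 53.6 FPKM, with all null values above WT (log2 0.51, SE 0.15, limma adjusted p = 0.171), the opposite sign to THY1+ cells.

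Cbs was at 0.325, 0.323 and 0.263 FPKM in WT and 0.403, 0.521 and 0.430 in null KIT+ libraries, again wholly above WT (log2 0.45, SE 0.19, limma adjusted p = 0.274). Gss, Gsr and Gclc lay below WT without overlap. Gss was at 6.70, 6.64 and 6.95 FPKM in WT and 5.22, 5.14 and 5.28 in null libraries (log2 -0.37, SE 0.10, limma adjusted p = 0.165), and Gsr at 107, 117 and 116 and 103, 85.9 and 92.3 FPKM (log2 -0.27, SE 0.089, limma adjusted p = 0.193). Gclc was at 42.6, 43.7 and 43.8 and 40.9, 34.9 and 38.4 FPKM (log2 -0.19, SE 0.078, limma adjusted p = 0.255). Non-overlap of this kind held for 8.73% of all genes higher and 8.77% lower in the null, and for 3 of the 10 genes in each direction. The groups of Gclm (11.1 to 11.5 and 10.1 to 12 FPKM) and Gpx4 (11 to 15.7 and 10.2 to 12.8 FPKM) overlapped. Leydig cell markers were higher in 7 of 8 cases in null KIT+ libraries (2074 to 3163 against 1230.2 to 2311 FPKM summed) and stromal markers in 11 of 12 (390.1 to 796 against 247 to 492), with 0 calls among them. Sertoli cell markers were higher in 8 of 10 cases (245 to 309.9 against 159 to 227) and endothelial markers in 8 of 8 (23.3 to 41.6 against 17 to 33.5). Differentiating SPG markers, those of the sorted cells, were lower in 5 of 7 cases, with summed levels of 275 to 331 in null against 363 to 388 FPKM in WT. The sums of the Sertoli cell and differentiating SPG markers did not overlap between the groups, and 0 markers of these lists were calls. The part of these markers in the levels of the 10 genes was not tested.

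**Figure D2:**
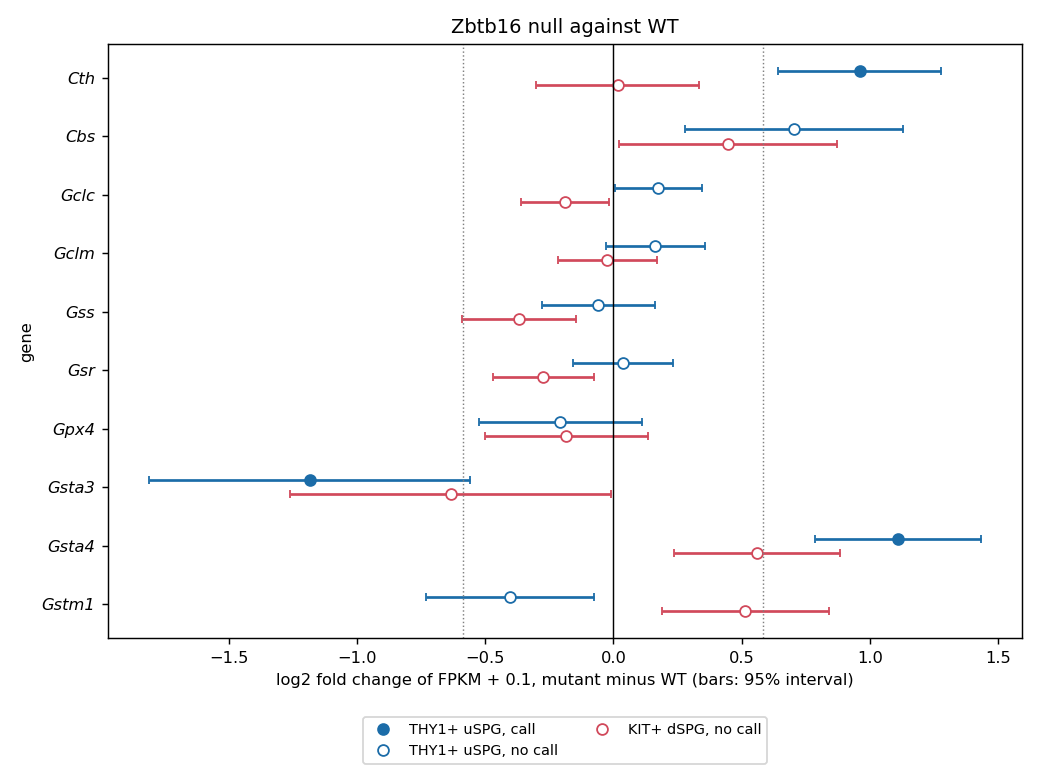
Log2 fold change of FPKM + 0.1, null minus WT, for each gene in THY1+ (blue) and KIT+ (red) libraries of the Zbtb16 table, with 95% intervals. Filled points are calls and dotted lines mark 1.5-fold. Cth, Gsta3 and Gsta4 are filled in THY1+ cells and no gene is filled in KIT+ cells.

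Whether the effect of the null differed between the fractions was tested as an interaction. Of all genes tested 7 were calls, 0.0313%, and 0 of them were among the 10 genes, with 5 of the 10 at an unadjusted p under 0.05 by limma against 22.4% of all genes. The difference of differences, KIT+ less THY1+, was -0.94 for Cth (SE 0.21, unadjusted p = 0.000709, limma adjusted p = 0.0930) and 0.92 for Gstm1 (SE 0.21, unadjusted p = 0.00106, limma adjusted p = 0.0935). The Cth value again uses the null THY1+ libraries for which the study named the gene. Both were calls without null KIT+ replicate 1, where calls over all genes went from 7 to 867. Both were also calls with a replicate block, which is given at the end of the text with its count over all genes. The Gsta4 and Gsta3 differences were -0.55 (limma adjusted p = 0.161) and 0.55 (limma adjusted p = 0.436).

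The 10 genes were also compared between the fractions themselves. Of all genes tested 21.2% were calls between WT KIT+ and THY1+ libraries, and 0 of the 10 genes were, with 1 at an unadjusted p under 0.05 by limma against 40% of all genes. The calls were 1614 higher and 3123 lower in KIT+ libraries, or 2675 and 2393 when median centred, a shift of 0.17. That gene was Gpx4, at 9.25, 8.34 and 10.9 FPKM in THY1+ and 15.7, 11 and 13.2 in KIT+ libraries, higher without overlap by 1.39-fold (limma adjusted p = 0.0289), short of the 1.5-fold of a call. It became a call when median centred, at a log2 fold change of 0.64, or at 0.61 when WT KIT+ replicate 2 was left out. In the null, 29.2% of genes tested were calls between fractions (13.2% higher and 16% lower in KIT+), and 2 of the 10 were. Gstm1 was 2.21-fold higher in null KIT+ than null THY1+ libraries (log2 1.15, SE 0.15, limma adjusted p = 0.000127), and Cth was 1.70-fold lower (log2 -0.77, SE 0.15, limma adjusted p = 0.00155). Here too the Cth value rests on those null THY1+ libraries. Gclc (1.38-fold), Gclm (1.26-fold) and Gsta4 (1.33-fold) were lower and Gpx4 (1.42-fold) higher in null KIT+ than null THY1+ libraries with limma adjusted p of 0.000643, 0.0111, 0.0469 and 0.0170, but under 1.5-fold. The summed Leydig cell markers were 1230.2 to 2311 FPKM in WT KIT+ against 87.1 to 125 in WT THY1+ libraries, and the macrophage markers 8.48 to 10.9 against 987 to 1108, a difference between fractions whose part in these values was not tested.

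Loss of Sox3 was asked about in the same way in the Sox3 table. As labelled, cKO against WT THY1+ libraries gave 29.1% of 21212 genes as calls (17.8% higher and 11.3% lower), and 2 of the 10, Cth and Gpx4, both lower. The groups compared by label, in either fraction, differed in their Thy1 and Kit levels, as given above. A difference of genotype and one of fraction therefore cannot be told apart in these calls. Over all genes the calls were 3768 higher and 2398 lower, or 2739 and 4377 when median centred, a shift of -0.22. Cth was at 2.69, 2.99 and 2.71 FPKM in WT labelled THY1+ and 2.19, 1.36 and 1.94 in cKO THY1+ libraries, without overlap (log2 fold change -0.61, SE 0.19, limma adjusted p = 0.0241). That call was lost without WT labelled THY1+ replicate 2 (log2 fold change -0.56) or without cKO THY1+ replicate 2, the lowest library (-0.42). Gpx4 was at 15.9, 15.8 and 12.2 and 8.97, 6.69 and 8.87 FPKM, also without overlap (log2 -0.83, SE 0.17, limma adjusted p = 0.00309), and stayed a call in 20 of 20 alternatives. All of these alternatives compared the same labelled groups. Against WT labelled KIT+ libraries Gpx4 was not a call, as given below, and between WT fractions of the Zbtb16 table it was higher in KIT+ libraries. As labelled in KIT+ libraries, 25.1% of genes were calls (12.4% higher and 12.6% lower) and 1 of the 10, Gstm1, higher (log2 0.97, SE 0.24, limma adjusted p = 0.00884).

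Set against the WT libraries with like Thy1 and Kit levels, the 10 genes gave 0 calls in cKO THY1+ and 1 in cKO KIT+ libraries. Between cKO THY1+ and WT labelled KIT+ libraries 0.0707% of all genes were calls (0.00471% higher and 0.066% lower), 15 in all, and 0 of the 10. By limma 1 of the 10, Gpx4, had an unadjusted p under 0.05, against 13.2% of all genes. Gpx4 was at 11.6, 11.7 and 8.92 FPKM in WT labelled KIT+ libraries, and its lowest library overlapped the cKO THY1+ values (log2 -0.39, SE 0.17, limma adjusted p = 0.372). Cth was at 2.74, 2.16 and 2.17 FPKM there, overlapping the cKO THY1+ values, with a 95% interval of -0.78 to 0.05. Gsta3 was at 24.3, 19.6 and 17.3 FPKM in WT labelled KIT+ and 14.7, 11.2 and 15.9 in cKO THY1+ libraries, wholly lower in the cKO, as were 12% of all genes tested, with 7.59% wholly higher (log2 -0.55, SE 0.27, limma adjusted p = 0.408). Gsta4, at 99.7, 75.5 and 71.8 and 86.3, 52.1 and 87.2 FPKM, overlapped. For Gstm1 and Gsta4, cKO THY1+ replicate 2 stood apart from the other cKO THY1+ libraries: Gstm1 was at 28.6, 58.8 and 30.3 FPKM in replicates 1, 2 and 3. The intervals of the log2 fold changes were -0.63 to 0.32 for Gsta4 and -0.23 to 0.81 for Gstm1, so both took in a change of 1.5-fold.

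Between cKO KIT+ and WT labelled THY1+ libraries 17% of all genes were calls, 2638 higher (12.4%) and 970 lower (4.57%), or 1728 and 2769 when median centred, a shift of -0.21. Of the 10 genes 1 was a call, Gstm1. It was at 31.2, 32.1 and 35.2 FPKM in WT and 62.7, 52.6 and 63.9 in cKO KIT+ libraries, without overlap (1.81-fold, log2 0.86, SE 0.24, limma adjusted p = 0.0238). The call was lost without WT labelled THY1+ replicate 1 or 2 or cKO KIT+ replicate 1 or 3, with log2 fold changes of 0.81 to 0.84. Gsta3 was at 16.5, 9.71 and 11.2 FPKM in WT and 24.6, 11.6 and 18 in cKO KIT+ libraries, which overlapped through cKO replicate 2 (log2 0.50, SE 0.27, limma adjusted p = 0.197), and was a call without that library (0.78). Gsta4 was at 89.2, 68.3 and 69.3 and 129, 88.8 and 104 FPKM (log2 0.50, SE 0.22, limma adjusted p = 0.119), WT replicate 1 lying just above cKO replicate 2.

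Cth was at 2.02, 1.87 and 2.24 FPKM in cKO KIT+ libraries, wholly below WT labelled THY1+ (log2 -0.44, SE 0.19, limma adjusted p = 0.111). Gss was at 7.30, 7.24 and 6.82 FPKM in WT and 5.30, 5.86 and 5.68 in cKO KIT+ libraries, also wholly lower, with a limma adjusted p of 0.0303 but a change of 1.26-fold, under that of a call. Gclc was wholly lower too (43.6 to 48.6 against 36.2 to 41.8 FPKM), and Cbs wholly higher (0.221 to 0.242 against 0.253 to 0.430 FPKM), and neither was a call. Over all genes tested 22.8% were wholly higher and 17.2% wholly lower in the cKO. Leydig cell markers were higher in 8 of 8 cases, 6 of them calls, in cKO KIT+ libraries (2539 to 5009.5 against 1257 to 2033 FPKM summed), and endothelial and stromal markers in 8 of 8 and 11 of 12, 4 of each being calls. Sertoli cell markers were higher in 8 of 9 cases, 3 of them calls (295 to 416 against 180.0 to 225 FPKM). Differentiating SPG markers were lower in 6 of 7 cases, 4 of them calls (234 to 299.9 against 436 to 512 FPKM). None of the summed Leydig cell, Sertoli cell and differentiating SPG levels overlapped between these groups, and the part of these markers in the level of Gstm1 was not tested.

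Averaged over both fractions, a value that would be the same if the WT labels were exchanged, 10.3% of genes were calls and 0 of the 10, with 4 at an unadjusted p under 0.05 by limma against 38.4% of all genes. The calls were 1588 higher and 600 lower, or 913 and 1425 when median centred, a shift of -0.14. Cth was 1.32-fold lower (limma adjusted p = 0.0466), Gss 1.16-fold lower (0.0474 by the same test) and Gstm1 1.49-fold higher (0.0302), each under 1.5-fold. Leydig cell markers were higher in 8 of 8 cases in this average, 5 of them calls, and their part was not tested. Gstm1 was a call without any 1 of 5 libraries, with log2 fold changes of 0.60 to 0.67. Cth lay above WT in the Zbtb16 null THY1+ libraries, near WT in the null KIT+ libraries and below WT in the Sox3 cKO average. In cKO THY1+ libraries alone its values overlapped those of WT labelled KIT+ libraries. The tables were normalized separately and no test was made across them. Between cKO KIT+ and cKO THY1+ libraries 22.7% of genes were calls and 0 of the 10, with 5 at an unadjusted p under 0.05 by limma against 41% of all genes. Gstm1 was 1.60-fold higher in the KIT+ libraries (limma adjusted p = 0.0511) and became a call, at a log2 fold change of 1.01, without cKO THY1+ replicate 2.

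**Figure D3:**
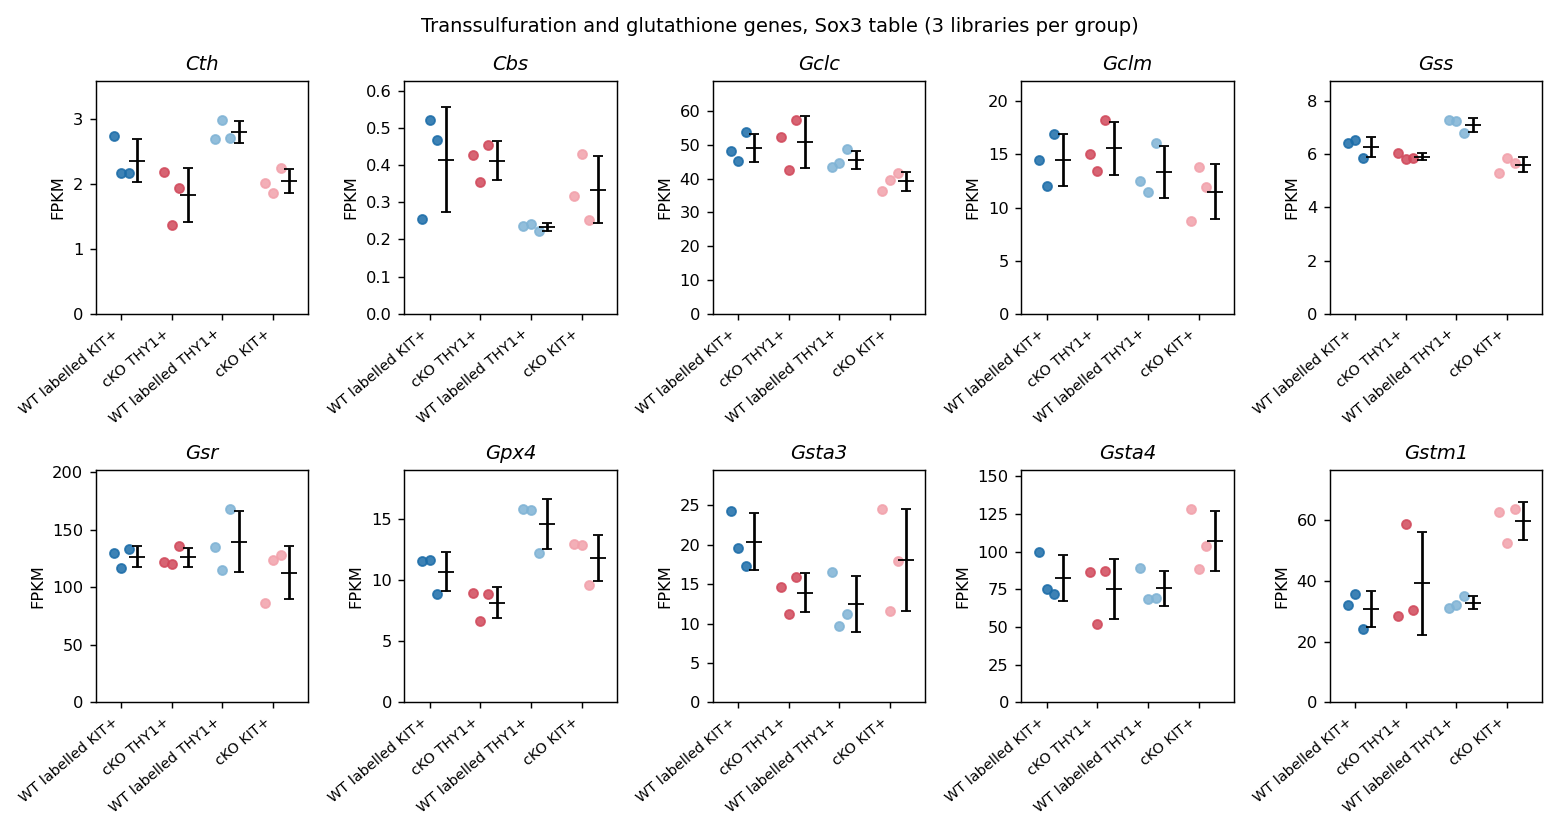
FPKM of the 10 genes in each library of the Sox3 table, on linear axes from 0. Points are libraries, 3 per group, with the mean ± SD beside them, and each cKO group follows the WT group with like Thy1 and Kit levels, under its label. Gstm1 was highest in the 3 cKO KIT+ libraries apart from cKO THY1+ replicate 2.

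**Figure D4:**
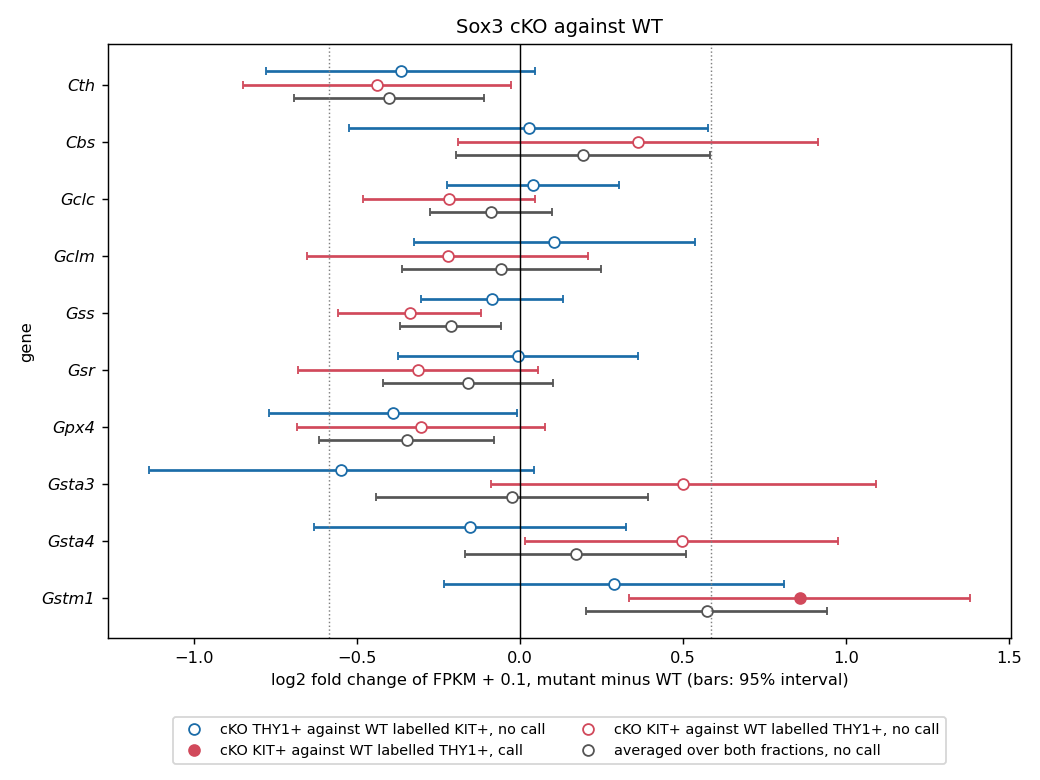
Log2 fold change of FPKM + 0.1, cKO minus WT, for each gene with 95% intervals, for cKO THY1+ against WT labelled KIT+ (blue), cKO KIT+ against WT labelled THY1+ (red) and the average over both fractions (grey). The filled point, Gstm1 in cKO KIT+ libraries, is the call, and dotted lines mark 1.5-fold.

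Around these 10 genes, 6 lists of pathway genes gave the context in null against WT THY1+ libraries. Other glutathione transferases held the most calls, 4 higher and 3 lower of 21 tested, against 2.71% higher and 1.26% lower over all genes, and their median log2 fold change was 0.10 against -0.03 over all genes. With 1 library left out the 7 calls became 2 to 8. They were 2 without WT THY1+ replicate 1 or 2 or null THY1+ replicate 1 or 3, 3 without WT THY1+ replicate 3 or WT KIT+ replicate 2 or 3, and 4 without null KIT+ replicate 2 or 3. Gstt2, a theta-class transferase, rose (3.89 to 8.48 FPKM, log2 fold change 1.1, SE 0.12, limma adjusted p = 0.000896), as did Gsto1, an omega-class transferase (16.2 to 33.4 FPKM, log2 fold change 1.05, SE 0.10, limma adjusted p = 0.000466). Hpgds, a sigma-class transferase that makes prostaglandin D, fell (14.8 to 8.80 FPKM, log2 fold change -0.78, SE 0.20, limma adjusted p = 0.0480). In the same libraries the 12 macrophage markers were lower, as given above, and between WT fractions both Hpgds and the macrophage markers were lower in KIT+ cells. Their part in the level of Hpgds was not tested.

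Of 12 methionine cycle genes 1 rose, Mat1a, a methionine adenosyltransferase (0.668 to 1.45 FPKM, log2 fold change 1.02, SE 0.21, limma adjusted p = 0.0214), and 11 were not called. Cystine uptake and cysteine use gave 0 calls of 12 by limma, with 3 at an unadjusted p under 0.05 against 23.8% of all genes. Glutathione breakdown and export gave 2 higher of 14, among them Abcc4, a transporter able to export glutathione conjugates (9.88 to 16.1 FPKM, log2 fold change 0.71, SE 0.15, limma adjusted p = 0.0231). Peroxidases, thioredoxin and NADPH genes gave 1 higher of 27. The methionine cycle call was lost without WT THY1+ replicate 1 or 2 or null THY1+ replicate 1 or 3. Breakdown and export gave 0 calls without WT THY1+ replicate 1 or 3 or null THY1+ replicate 1, and 1 without replicate 2 of either group. Peroxidases gave 0 without WT THY1+ replicate 1 or null THY1+ replicate 3 and 2 without WT KIT+ replicate 1. Among 15 regulators and their other targets 1 rose, Asns, the asparagine synthetase that ATF4 induces (8.89 to 14.2 FPKM, log2 fold change 0.67, SE 0.10, limma adjusted p = 0.00469).

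In null against WT KIT+ libraries, where 0.259% of all genes were calls, the lists gave 1 call in all, Gsto1 again (16.6 to 27.7 FPKM, log2 fold change 0.75, SE 0.10, limma adjusted p = 0.0151), which was lost without null KIT+ replicate 2 or 3. In cKO THY1+ against WT labelled KIT+ libraries they gave 0 calls of 100 genes by limma, against 0.0707% of all genes. Of the 100 genes 15 had an unadjusted p under 0.05 by limma, against 13.2% of all genes. In cKO KIT+ against WT labelled THY1+ libraries, cystine uptake and cysteine use gave 5 higher of 12 against 12.4% over all genes, among them Slc7a11, the cystine carrier of the cystine-glutamate exchanger (0.385 to 1.59 FPKM, log2 fold change 1.85, SE 0.32, limma adjusted p = 0.00375), and Mpst, which passes sulfur from mercaptopyruvate (4.43 to 8.95 FPKM, log2 fold change 0.99, SE 0.32, limma adjusted p = 0.0456). In that comparison the other transferases gave 4 higher and 1 lower of 21, and Gsta2, of the alpha class, rose (6.83 to 17.5 FPKM, log2 fold change 1.36, SE 0.38, limma adjusted p = 0.0249). The methionine cycle gave 2 higher of 12, breakdown and export 1 higher and 2 lower of 13, peroxidases 3 higher and 1 lower of 27, and regulators 3 lower of 15. Over all genes 12.4% were called higher and 4.57% lower in that comparison. These counts moved with single libraries. Cystine uptake and cysteine use gave 2 calls without WT labelled THY1+ replicate 2 or 3 or cKO KIT+ replicate 1, and 3 without cKO KIT+ replicate 3. The transferases gave 1 without WT labelled THY1+ replicate 2 or 3 or cKO KIT+ replicate 3, and 3 without replicate 1 of either group. Peroxidases gave 2 without WT labelled THY1+ replicate 3 and 7 without WT labelled KIT+ replicate 3. Breakdown and export gave 1 without WT labelled THY1+ replicate 2 or 3 or cKO KIT+ replicate 1, and the methionine cycle 1 without WT labelled THY1+ replicate 2. The Leydig cell and Sertoli cell markers given above were higher, and the differentiating SPG markers lower, in the same libraries.

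Between WT KIT+ and THY1+ libraries, where 21.2% of all genes were calls, the other transferases gave 6 higher and 3 lower of 21, peroxidases 4 and 4 of 27, cystine uptake and cysteine use 4 and 0 of 12, the methionine cycle 2 and 2 of 12, breakdown and export 0 and 1 of 14, and regulators 2 and 3 of 15. Regulators gave 3 calls without WT THY1+ replicate 2, and breakdown and export 2 without replicate 2 of WT KIT+, null THY1+ or null KIT+. Gsta2 rose (2.51 to 9.79 FPKM, log2 fold change 1.92, SE 0.27), as did Mgst1, a membrane-bound transferase (8.74 to 33 FPKM, log2 fold change 1.90, SE 0.18), and Tst, a thiosulfate sulfurtransferase (5.76 to 23.4 FPKM, log2 fold change 1.98, SE 0.19). Hpgds fell (14.8 to 0.492 FPKM, log2 fold change -4.67, SE 0.20), as did Hmox1, the heme oxygenase that NRF2 induces (118 to 30.4 FPKM, log2 fold change -1.91, SE 0.18). The Leydig cell and macrophage markers given above differed between the same libraries, and their part was not tested.

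**Figure D5:**
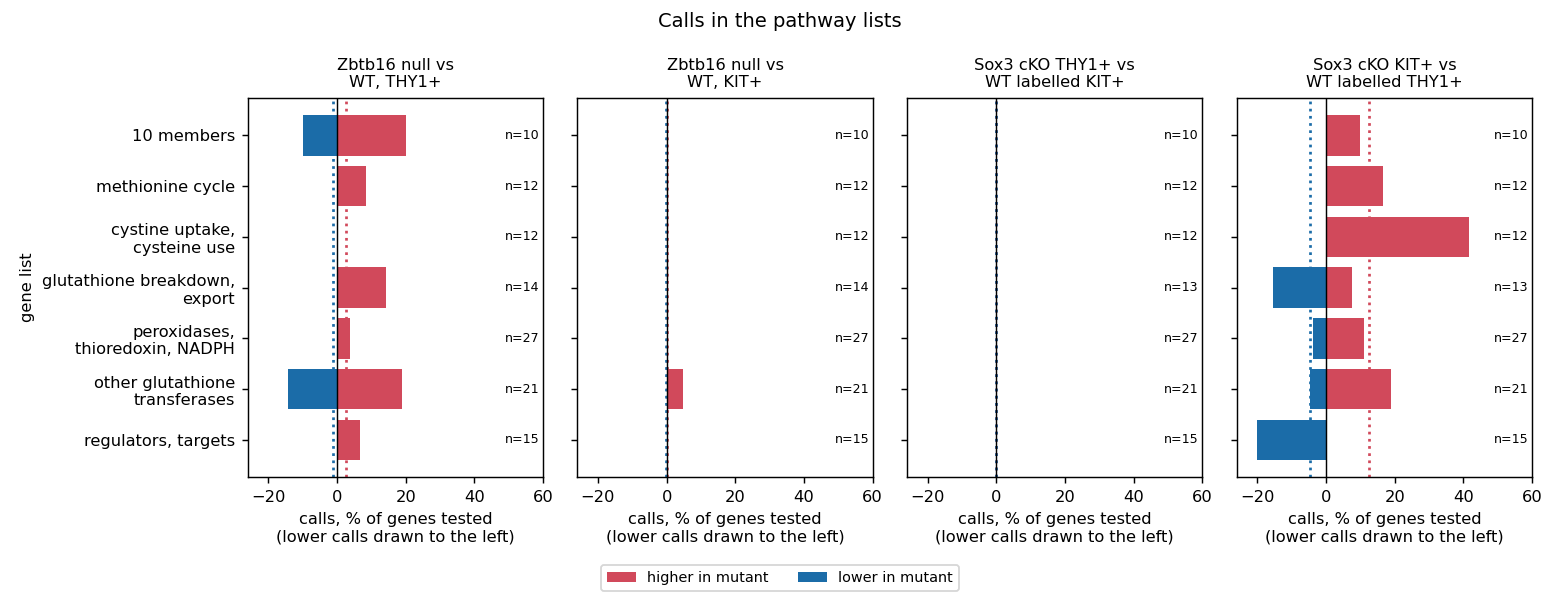
Calls as a percent of the genes tested in each list (n beside the bars) in 4 comparisons, higher in the mutant to the right in red and lower to the left in blue, with dotted lines at the percent over all genes. In null THY1+ cells the other glutathione transferases carry calls in both directions (4 higher and 3 lower of 21). The member calls there are Cth and Gsta4, higher, and Gsta3, lower. The study named Cth and Gsta3 from these same libraries, so their bars are a description. In cKO THY1+ against WT labelled KIT+ libraries every list is at 0.

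The genes with profiles most like Cth and Gsta3 were looked up over the 12 libraries of the Zbtb16 table, by the root mean square difference of gene-centred log2 values among 16523 genes with a mean of at least 1 FPKM. For Cth the nearest was Pkp2, a desmosomal plakophilin, at 0.0862, against a median of 0.488 over all genes compared and an SD of 0.388 for Cth itself. Hecw2, Tefm, Acot9 and Magea8 followed at 0.148 to 0.159. For Gsta3 the nearest was Hmgn5, a nucleosome-binding protein, at 0.260 against a median of 0.660 and an SD of 0.592, followed by Gm12929, Gm20717, Gm23713 and Ccdc125 at 0.319 to 0.340. Gsta3 was thus at a larger distance from its nearest gene than Cth.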

How the data were processed

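RNA from THY1+ and KIT+ SPG was sequenced from ribosomal RNA-depleted, stranded libraries as single 50-base reads. Per the labels and the methods, the authors aligned reads to mm10 with Novoalign, keeping reads with several matches, and counted them per Ensembl gene with USeq. What they deposited is FPKM per library, in a table for Zbtb16 and a table for Sox3. Counts were not at hand, so the authors' DESeq2 test could not be repeated.

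The filter kept genes whose 12 libraries averaged 0.1 FPKM or more. They were tested on log2(FPKM + 0.1) with limma 3.58.1 in R 4.3.3: group means of all 4 groups in one model, moderated variance with trend and robust fitting, two-sided contrasts, and Benjamini-Hochberg adjustment over all genes tested. Fold changes are on that scale and understate changes of low genes such as Cbs. Calls needed an adjusted p of at most 0.05 and 1.5-fold, the study's thresholds. The script was tested on simulated data. Depth and reads per gene were estimated from the steps between low FPKM values, and intervals cover only the spread between libraries. Python 3.11.15 with pandas 2.3.3 made the annotation and promoter searches.

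Named were the 10 genes, the targeted genes, Thy1 and Kit, up to 3 called genes per pathway list and comparison (largest change, at least 1 FPKM, no overlap), and the 5 genes most like Cth and Gsta3. The members, lists and tests were chosen with earlier results of these data known. Alternatives were the pseudocount, the filter, median centring, a replicate block, the 6 libraries of a comparison alone, and each library left out. The analysis of replicates 2 and 3 alone was chosen after seeing the data.

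Markers of the remaining cell types were also read in null against WT THY1+ libraries: of 19 undifferentiated SPG markers 1 was called higher and 4 lower, of 7 differentiating SPG markers 0 were called, of 8 endothelial markers 6 were lower with 0 calls, and of 9 T cell markers 6 were lower with 1 call. Adgre1 among the macrophage markers was not listed.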

Additional observations from a re-analysis of the deposited data

Results flagged for a closer look

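Gclc, the catalytic subunit of glutamate-cysteine ligase, lay above WT in every Zbtb16 null THY1+ library (52.4, 51.8 and 53.7 against 44.1, 47.1 and 48.6 FPKM) and below WT in every null KIT+ library (40.9, 34.9 and 38.4 against 42.6, 43.7 and 43.8 FPKM). It was picked out because all libraries of the fractions moved in opposite directions. Over all genes tested, 15.5% lay wholly above WT in null THY1+ libraries and 8.77% wholly below WT in null KIT+ libraries. The share of genes that did both was not counted. The libraries that picked out Gclc also gave the values that follow, so the interval and p are a description only. The difference between the changes, KIT+ less THY1+, was -0.36 on the log2 scale (SE 0.11, 95% interval -0.61 to -0.12), and the test of that difference missed the threshold (unadjusted p = 0.00660, limma adjusted p = 0.111). No formal test for an outlying library was made in groups of 3.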

How the results depend on the processing

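Of 2119 fold changes of the 10 genes under alternatives, 2024 kept their sign and their side of the call, 17 lost the call, 23 gained it and 55 changed sign. Those that changed sign were of genes that were not called. Median centring gave log2 fold changes in null THY1+ of 0.062 for Gss, in null KIT+ of -0.080 for Cth, in the interaction of -0.19 for Gpx4, in WT fractions of 0.062 for Gclc and of 0.024 for Gclm, in null fractions of -0.041 for Gsta3, in labelled Sox3 THY1+ of -0.077 for Gclc, of -0.043 for Gsta3 and of -0.046 for Gstm1, in cKO THY1+ against WT labelled KIT+ of -0.035 for Cbs and of -0.021 for Gclc. Replicates 2 and 3 alone gave in labelled Sox3 KIT+ 0.013 for Gsr, in the cKO average 0.028 for Gclm and 0.0030 for Gsta3, in cKO THY1+ against WT labelled KIT+ -0.25 for Cbs and 0.034 for Gsr. With 1 library left out the ranges were, in null THY1+ -0.0039 to 0.080 for Gsr and -0.12 to 0.011 for Gss, in null KIT+ -0.080 to 0.14 for Cth and -0.080 to 0.038 for Gclm, in the interaction -0.10 to 0.15 for Gpx4, in null fractions -0.16 to 0.18 for Gsta3. In the Sox3 table they were, in labelled Sox3 THY1+ -0.16 to 0.21 for Gsta4, -0.26 to 0.011 for Gsr and -0.15 to 0.36 for Gstm1, in labelled Sox3 KIT+ -0.48 to 0.057 for Gsta3, in the cKO average -0.15 to 0.12 for Gsta3 and -0.13 to 0.035 for Gclm, in cKO THY1+ against WT labelled KIT+ -0.22 to 0.18 for Cbs, -0.065 to 0.034 for Gsr, -0.053 to 0.16 for Gclc, -0.020 to 0.23 for Gclm, -0.28 to 0.091 for Gsta4 and -0.043 to 0.48 for Gstm1, in cKO fractions -0.015 to 0.31 for Cth and -0.29 to 0.000396 for Gsr. The number of the 10 genes called went from 0 to 2 in the Zbtb16 interaction with a replicate block, from 0 to 1 between WT fractions when median centred, and from 2 to 1 in labelled Sox3 THY1+ libraries with a pseudocount of 1, with the 6 libraries alone or with replicates 2 and 3 alone. With replicates 2 and 3 alone it went from 1 to 0 in labelled KIT+ libraries and in cKO KIT+ against WT labelled THY1+, which had 2 when median centred. Between cKO fractions it went from 0 to 1 with a pseudocount of 1, with a replicate block and when median centred. Leaving out 1 library gave 0 to 2 in the interaction, 0 to 1 between WT fractions, 1 to 3 in labelled THY1+, 0 to 1 in the cKO average, 0 to 2 in cKO KIT+ against WT labelled THY1+ and 0 to 1 between cKO fractions. The cause was not tested.

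Over all genes, null THY1+ calls were 565 with a pseudocount of 1, 468 at a mean FPKM of at least 1 and 296 to 924 with 1 library left out, against 890. Null KIT+ calls were 25 with a pseudocount of 1, 2 with the 6 libraries alone and 25 to 42 with 1 left out, against 58. The interaction gave 45 with a pseudocount of 1 and 1 to 867 with 1 left out, against 7. WT fractions gave 2883 and 3139, and null fractions 4070 and 4332, with that pseudocount and filter. In the Sox3 table, replicates 2 and 3 alone gave 3291 (labelled KIT+), 597 (average), 0 (cKO THY1+ against WT labelled KIT+), 987 (cKO KIT+ against WT labelled THY1+) and 2480 (cKO fractions). The average gave 1024 with a pseudocount of 1. Libraries of cKO THY1+ against WT labelled KIT+ gave 9 at a mean of at least 1, 27 when median centred, 1 with the 6 libraries alone and 5 to 15 with 1 left out.

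Replicate numbers were shared across groups, and the labels do not say whether they pair libraries. By the methods, THY1+ and KIT+ libraries may come from the same pools, which the main model leaves out. Deviations of same-numbered libraries correlated at -0.03 to 0.52 (mean 0.33, 16 of 18 pairs over 0.1, 33 of 36 comparisons best with their own number) in the Zbtb16 table and -0.12 to 0.35 (12 of 18, 27 of 36) in the Sox3 table. With the replicate block, calls over all genes were 1980 in null THY1+, 513 in null KIT+, 2756 in the interaction and 29 in cKO THY1+ against WT labelled KIT+. Cbs became a call in null THY1+ (limma adjusted p = 0.0159), and Cth (0.0186) and Gstm1 (0.0246) in the interaction. The depth of 11.07 to 14.99 M reads in most Sox3 libraries limits Cbs and Cth.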
